A study of Sus scrofa with 8 samples.

Results

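Small RNA tags that were shared by all 8 libraries of porcine milk exosomes, but did not carry the seed of the abundant milk miRNAs, were described. An insert is the part of a read that stood before the 3′ adaptor. Those of 16 to 26 nt with every base called were grouped by their first 18 nt, and 759 of 1490841 groups had more than 10 counts in each of the 8 libraries. Of these, 27 groups were left out because their bases 2 to 8 were those of 1 of the 13 most abundant miRNAs listed by the study, and 18 because they began with a leader. The leaders were the 4 most abundant inserts of 5 nt. The remaining 714 groups are called core tags, and each is named by its rank in median level. The rule used the counts themselves, so that presence in every library is not a result. At the threshold, 52 groups had 11 counts and 36 had 12 counts in their lowest library and were kept, whereas 49 with 10 counts and 66 with 9 counts were not.

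Exosomes were precipitated from the milk of 3 healthy Yorkshire sows at their second parity, with no treatment. At 0 days after birth, 1 library was made from each sow (named 0d-1 to 0d-3). At 3, 7, 14, 21 and 28 days 1 library was made from RNA pooled over the sows (3d, 7d, 14d, 21d and 28d). The libraries of 0 and 3 days are colostrum and the others mature milk. Since only 0 days had separate animals, the comparison of milk types treats stages as replicates, and its p-values measure the spread between these libraries. Precipitated milk RNA cannot be assigned to a cell of origin, and fewer vesicles and less RNA per vesicle cannot be told apart.

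Milk exosomes are membrane vesicles that carry RNA, and the study proposes that they may pass to the young by way of the gut. Besides miRNAs, which are cut by Dicer to a narrow range of lengths and pair with mRNAs through their seed, milk holds pieces of structural RNAs. Ribosomal RNAs build the ribosome, and tRNAs, which bring amino acids to it, are cut into fragments by several nucleases. Pig sequences of these RNAs were not used here, so that a core tag is given a relation only where it matched a miRNA or a primer listed by the study, or carried a short motif.

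The following 10 core tags had the highest median level and are shown since they carried a large share of the counts. Each is the commonest insert of its tag, with the bases that define the tag in capitals.
tag 1: CCCGGGGTGTGGGGAGGGcc
tag 2: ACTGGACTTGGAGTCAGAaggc
tag 3: CCCGCGGGGCCCGAAGCG
tag 4: AGGTGTAGAATAAGTGGGaggcc
tag 5: GGAATACCGGGTGCTGTAggctt
tag 6: CGCGACCTCAGATCAGACgt
tag 7: GAGGTGTAGAATAAGTGGgaggcc
tag 8: TGGGGAACCTGGTGCTAAaccat
tag 9: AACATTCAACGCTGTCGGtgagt
tag 10: CTGGACGAGGCGCCGCCGcc

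Tags 4 and 7 overlapped after a shift of 1 base, and tag 5 overlapped the primer site of 5S ribosomal RNA. Further sets are shown beside their values below.

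The library 0d-3 stood apart from the others. Its leader-free counts, the counts of inserts of 16 to 26 nt that did not begin with a leader, numbered 14018795, against 484541 at 7d to 1715032 at 28d in the other 7 libraries. Leaders began 0.106% of its inserts, against 40.6% at 21d to 73.4% at 3d elsewhere. Levels are given as CPM, the counts scaled to 1000000 leader-free counts in each library. Between 0d-1 and 0d-2 the median core tag differed 1.2-fold in CPM and 95.7% of core tags lay within 2-fold, whereas 0d-3 differed from them by a median of 4.15-fold and 4.3-fold. Of the 714 core tags, 456 had their lowest CPM in 0d-3. Results are therefore given with and without 0d-3. The reads of 7d and 21d were 36 nt long and the others 40 nt.

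The core tags made up 20.0% of the leader-free counts in 0d-1, 21.4% in 0d-2, 59.6% in 0d-3 and 20.1% at 3d. In mature milk they made up 32.7% at 7d, 26.6% at 14d, 39.0% at 21d and 32.6% at 28d. With 0d-3 the milk types overlapped. The mean was 30.3% ± 19.6 in the 4 libraries of colostrum and 32.7% ± 5.06 in the 4 of mature milk (SD). The difference of -2.42 percentage points was -12.2 without 0d-3 and -0.333 to -4.46 without 1 mature milk library. It was 0.989, 0.544 and 0.983 without 0d-1, 0d-2 and 3d, 0.695 with 40-nt reads alone and 2.56 with more than 100 counts. Without 0d-3 all 3 colostrum libraries lay below all mature milk libraries. A single tag, tag 18, gave 49.6% of the core tag counts of 0d-3, whereas the leading tag gave 4.03% at 28d to 24.2% at 3d in the other libraries.

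**Figure D1:**
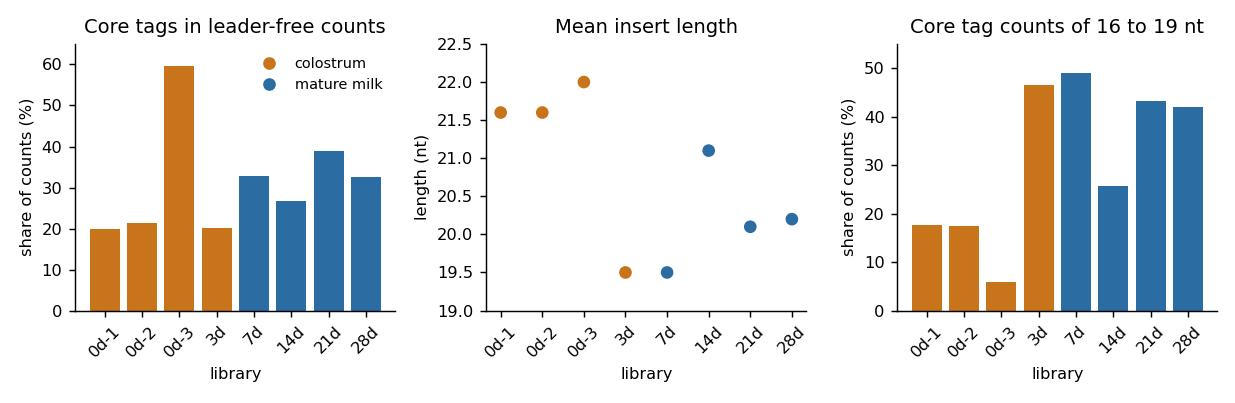
Share of leader-free counts in core tags (left, %), mean insert length of the core tag counts (middle, nt, axis from 19 nt) and share of core tag counts of 16 to 19 nt (right, %) in each library, colostrum in orange and mature milk in blue. In the left panel 0d-3 stands at 59.6%, above the 20.0 to 39.0% of the others, and in the right panel the 3 libraries of 0 days are the lowest.

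The core tags were of many lengths. The commonest insert was 22 nt for 134 tags, 21 to 24 nt for 341 tags (47.8%) and 16 to 19 nt for 241 tags (33.8%). Over the 5111 groups tested for a difference between milk types, the corresponding shares were 41.9% and 37.0%. A group of 16 or 17 nt holds inserts of exactly that length, and 89 core tags were of this kind. For the median core tag, 46.0% of the counts had the commonest insert, so that most tags had several 3′ ends.

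By counts, the mean length was 21.6 nt in 0d-1 and 0d-2, 22.0 nt in 0d-3 and 19.5 nt at 3d. In mature milk it was 19.5 nt at 7d, 21.1 nt at 14d, 20.1 nt at 21d and 20.2 nt at 28d. The 3 libraries of 0 days thus held the longest core tags, and 3d was as short as 7d. At 3d this rested on tags 19 and 168, both of 16 nt and described last, which held 28.8% of the core tag counts there and 9.66% at 7d. Without the pair, which was left out after the values were seen, the mean was 20.9 nt at 3d and 19.9 nt at 7d. The difference of colostrum from mature milk, 0.916 nt, did not exceed the spread (exact permutation test over 70 assignments, two-sided, p = 0.257, adjusted p = 0.514 over the 2 measures of length and first base), and it was 0.644 nt without 0d-3 (p = 0.4, exact permutation test). It was 1.48 nt without 3d (exact p = 0.0571), 1.35 nt without 0d-3 and 3d (exact p = 0.0667) and 1.15 nt without tags 19 and 168 (exact p = 0.0571). In the 40-nt libraries alone it was 0.494 nt (exact permutation p = 0.733), and 0.222 nt with 0d-3 left out as well (exact permutation p = 0.9). When each core tag was given the same weight, all 4 colostrum libraries (20.8 to 21.4 nt) lay above all 4 mature milk libraries (20.3 to 20.8 nt), although 3d and 14d round to the same value. That difference was 0.473 nt (exact permutation test, two-sided, p = 0.0286, the smallest p that 70 assignments allow).

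Short inserts took 17.6% of the core tag counts in 0d-1, 17.4% in 0d-2 and 5.93% in 0d-3, counting inserts of 16 to 19 nt. They took 46.5% at 3d, 49.1% at 7d, 25.8% at 14d, 43.3% at 21d and 42.1% at 28d. The 3 libraries of 0 days lay below the 5 later ones. At 3d most of these counts came from inserts of 16 nt, which held 30.9% of the core tag counts there, nearly all of them tags 19 and 168. Without these the share of short inserts was 24.8% at 3d, below the 25.2 to 43.7% of mature milk, and 5.84 to 17.6% at 0 days.

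The first base of the core tags was G for 259, C for 249, A for 105 and T for 101. Over the 5111 tested groups, G was first in 29.2%, C in 29.1%, A in 27.4% and T in 14.3%, and the core tags had 36.3%, 34.9%, 14.7% and 14.1%. A first U, read as T, is common among miRNAs. In the 27 groups with a seed of the 13 miRNAs, T began 70.03% of the counts in 0d-3 and 92.1 to 93.8% in the other libraries. Among the core tags T began 12.5% of the counts in 0d-1, 11.4% in 0d-2, 7.19% in 0d-3 and 9.04% at 3d, and 6.19% at 7d, 9.89% at 14d, 8.63% at 21d and 12.3% at 28d. Colostrum and mature milk overlapped, with a difference of 0.78 percentage points (exact permutation test, two-sided, p = 0.6). The median GC content was 66.7% in the core tags, 61.1% in the tested groups and 44.4% in the 27 seed groups.

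The core tags varied widely in abundance. The median CPM over the 8 libraries ran from 14.8 to 19900 with 72.5 at the middle, and 34 core tags lay above 1000, 240 between 100 and 1000 and 440 below 100. Many tags shared sequence, since 544 overlapped another core tag after a shift of a few bases and formed 120 families, the largest of 21 tags, and 62 differed by 1 base from a more abundant core tag. The 714 tags are thus not independent of each other.

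Tag 1 had 22465 CPM in 0d-1, 21695 in 0d-2, 77.8 in 0d-3 and 18081 at 3d, and 26225 at 7d, 21259 at 14d, 18540 at 21d and 12140 at 28d. The milk types overlapped, and 0d-3 was far below the others. Without 0d-3 the log2 fold change was -0.30 ± 0.49 (SE). Here and below, log2 fold changes are colostrum over mature milk from edgeR's quasi-likelihood fit over all tested groups.

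Tag 2 had 9609, 10148, 4825 and 6018 CPM in 0d-1, 0d-2, 0d-3 and 3d, and 17926, 12380, 10243 and 12733 CPM at 7d, 14d, 21d and 28d. Every mature milk library lay above every colostrum library, but the fold change did not pass the test (log2 0.15 ± 0.82 SE, and -1.03 ± 0.49 without 0d-3, edgeR adjusted p = 1 and 0.223). The sign of the first value comes with the scaling, in which the trimmed-mean factor of 0d-3 was 0.233 and raised its levels. Tag 9 had 4414, 4781, 11638 and 2448 CPM in colostrum and 2978, 3835, 3153 and 3489 CPM in mature milk, with its highest value in 0d-3.

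Of the 10 leading tags, tags 6 and 10 had a single high library in mature milk. Tag 6 had 22903 CPM at 21d, against 3629 to 6187 CPM in the other mature milk libraries. Tag 10 had 19031 CPM at 21d, against 3506 to 5715 CPM there.

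**Figure D2:**
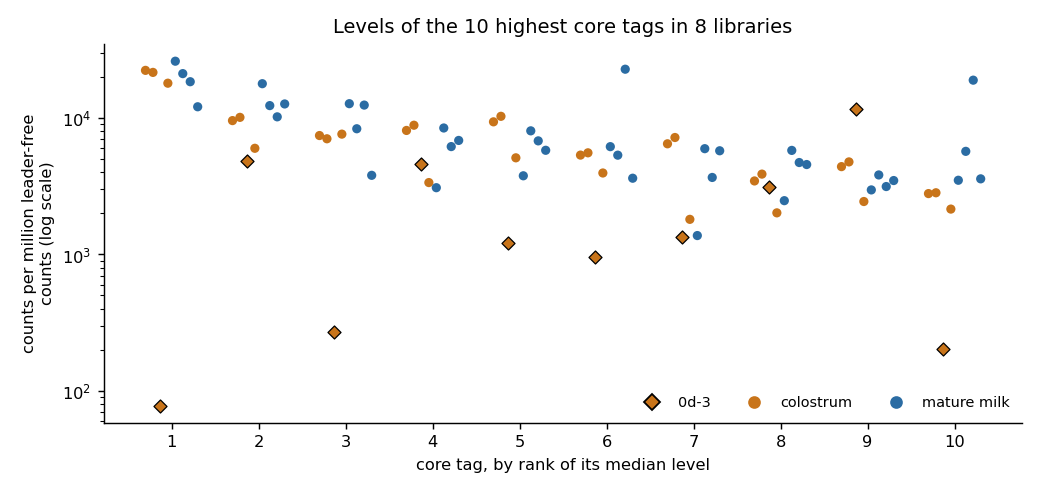
Level of the 10 highest core tags in each library, in CPM of leader-free counts on a log axis, ordered by rank of the median; circles are single libraries, orange for colostrum and blue for mature milk, and diamonds are 0d-3. Tag 1 stands at 77.8 in 0d-3 and between 12140 and 26225 in the other 7 libraries.

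The following core tags are shown because their highest library exceeded the next by more than 5-fold, which held for 24 tags in 0d-3, 12 at 21d, 11 at 28d and 0 in the other libraries. The factor and the tags shown were chosen after the values were seen.
tag 18: GTCAGGATGGCCGAGCGGtct
tag 184: GTCAGGATGGCCGAGTGGtct
tag 397: CGCGACCTCAGATCAGA
tag 32: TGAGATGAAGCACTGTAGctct
tag 423: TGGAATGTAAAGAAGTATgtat
tag 464: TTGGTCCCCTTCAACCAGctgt

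Tag 18 had 295977 CPM in 0d-3, 128-fold over the next library, and 1003 to 2314 CPM in the other 7. Tag 184, which ran along the same 21 nt with 1 base changed, had 3616 CPM in 0d-3 and 83.1 to 254 CPM elsewhere. Both tags were thus high in 1 of the 3 libraries of 0 days, and low in the other two and at 3d. The sow and the library cannot be told apart.

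Tag 397, a 17-nt piece of tag 6, had 1255 CPM at 21d and 10.3 to 99.1 CPM in the other libraries. Tag 32 had 13133 CPM at 28d and 468 to 2569 CPM elsewhere. Tag 423 had 1124 CPM at 28d against 0.927 to 146 CPM, and tag 464 had 1302 CPM against 1.64 to 85.4 CPM. The last 3 tags were all of 22 nt, whereas the other 8 of the 11 that were high at 28d were of 16 to 19 nt. With 1 pooled library at 28 days, the stage and the library cannot be told apart.

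No core tag passed the threshold of 0.05 on the adjusted p between the 4 libraries of colostrum and the 4 of mature milk (edgeR, Benjamini-Hochberg over 5111 tested groups, lowest adjusted p of a core tag 0.0994), and 0% of the tested groups did in either direction. At an unadjusted p under 0.05, 49 core tags were higher and 70 lower in colostrum, or 6.86% and 9.80%, against 3.27% and 8.08% of all tested groups. With library size alone as the scaling, 6 (0.84%) were higher and 105 (14.7%) lower, against 0.352% and 10.1%. DESeq2 called 35 core tags (4.9%), all lower in colostrum, against 4.89% of its 5111 groups lower and 0.0196% higher. At an unadjusted DESeq2 p under 0.05, 4 core tags (0.56%) were higher and 67 (9.38%) lower, against 3.11% and 7.49%. No DESeq2 value is given for the tags named below as the largest rises, so that its calls say nothing of them. Without 0d-3, edgeR called 46 core tags (6.44%), all lower in colostrum, against 7.5% of the 5961 groups then tested, and 0 higher, against 0.0336%. The share among core tags is thus near the background. At an unadjusted p under 0.05, 173 core tags (24.2%) were lower and 1 (0.14%) higher in this fit without 0d-3, against 17.4% and 6.76% of its 5961 groups. When 3d was left out as well, or the 36-nt libraries, the 46 became 0 (edgeR, lowest adjusted p of a core tag 0.103 and 0.099). At an unadjusted p under 0.05, 151 core tags (21.1%) were lower without 0d-3 and 3d, against 18.6% of the groups tested, and 133 (18.6%) without 0d-3 and the 36-nt libraries, against 10.1%.

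Counted without a model, 140 core tags (19.6%) had a lower CPM in all 4 colostrum libraries than in all 4 mature milk libraries, against 10.9% of the tested groups. The opposite held for 2 core tags (0.28%), against 0.176%. Without 0d-3 the counts were 152 and 11 core tags (21.3% and 1.54%), against 13.1% and 6.41%. The median log2 fold change of the core tags was 0.187, beside 0.275 over all tested groups, and without 0d-3 it was -0.647 beside -0.142. With library size alone as the scaling, the medians with all 8 libraries were -0.402 and -0.102. The direction of the median thus depended on 0d-3 and on the scaling.

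The fold changes differed with length. The 241 core tags of 16 to 19 nt had a median log2 fold change of -0.481 and the 473 of 20 to 26 nt one of 0.46, and without 0d-3 the medians were -1.26 and -0.529. Of the 46 core tags called without 0d-3, 30 were of 16 to 19 nt. With all 8 libraries 76 of the 241 short tags and 64 of the 473 longer tags lay below mature milk in every colostrum library. Over tested groups of all lengths, 7.5% were called lower without 0d-3 and 10.9% lay below in this way. The share of short inserts was lowest in the 3 libraries of 0 days and, with tags 19 and 168, 46.5% at 3d, and its part in the fold changes was not tested.

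**Figure D3:**
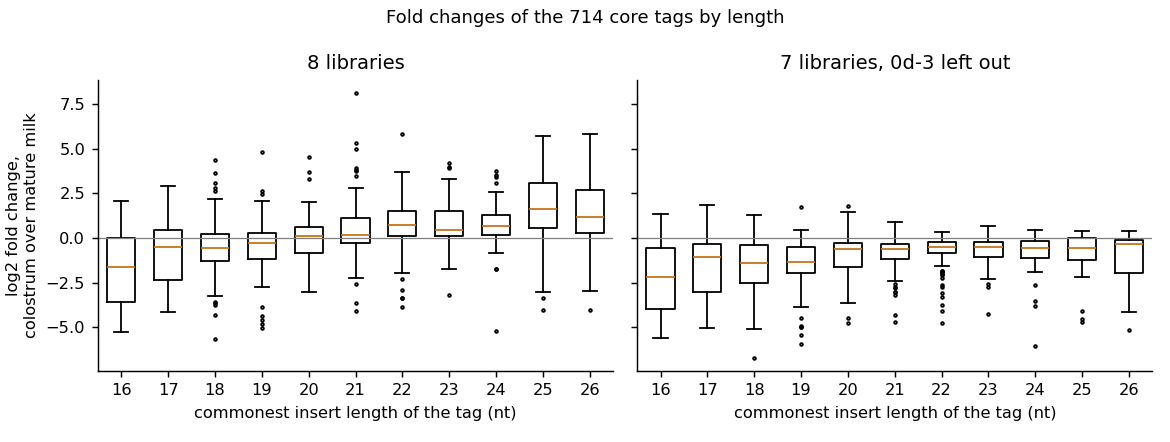
Log2 fold change of colostrum over mature milk for the 714 core tags, by the commonest insert length (nt), with all 8 libraries (left) and without 0d-3 (right); boxes span the quartiles with the median in orange, whiskers reach 1.5 times the box, and points lie beyond. In the left panel the medians of 16 to 19 nt lie below 0 and those of 20 to 26 nt above, and most of them lie below 0 in the right panel.

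The tags named by rule for the largest falls and rises at an unadjusted p under 0.05 are shown next, the first 5 lower and the last 3 higher in colostrum. A further rise, by the log2 fold change, was that of tag 18 above.
tag 53: ACGAGAACTTTGAAGGCC
tag 169: GGGGCGCGAAGCGGGG
tag 290: CGGTCGGGCTGGGGCGCGaagcgg
tag 641: CGGTGAGCTCTCGCTGGCc
tag 349: CGCGCGCGTGCGCGTCGGg
tag 147: CGACTCTTAGCGGTGGATcactcggc
tag 68: GACTCTTAGCGGTGGATCactcggc
tag 240: CCCCACTGCTAAATTTGActggctt

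Tag 53 had 44.1, 109, 25.8 and 87.6 CPM in 0d-1, 0d-2, 0d-3 and 3d, and 1872, 1284, 14763 and 2161 CPM at 7d, 14d, 21d and 28d. All mature milk libraries lay above all colostrum libraries, with 21d far above the rest. The log2 fold change was -5.68 ± 1.31 (SE, edgeR adjusted p = 0.0994), and -6.70 ± 1.38 without 0d-3 (adjusted p = 0.0295). Without 21d it was -3.91.

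Tag 169 had 23.0, 19.6, 1.07 and 49.8 CPM in colostrum and 2165, 300, 799 and 1812 CPM in mature milk. Its groups did not overlap either, and its log2 fold change was -5.25 ± 1.24 (SE, edgeR adjusted p = 0.0994, and 0.0295 without 0d-3). Tags 290, 641 and 349 were lower in each colostrum library than in each mature milk library, with log2 fold changes of -5.21 ± 1.21, -5.07 ± 1.5 and -4.81 ± 1.11 (SE, edgeR adjusted p = 0.0994, 0.154 and 0.0994, and 0.0295, 0.0552 and 0.0295 without 0d-3), and were highest at 21d. For tag 641 the nearest libraries were almost equal, with 28.7 CPM at 3d and 29.2 CPM at 28d, from 19 and 50 counts. With all 8 libraries DESeq2 called tags 169, 290, 641 and 349 lower (adjusted p = 5.42e-05, 4.54e-05, 0.00162 and 9.68e-05). No DESeq2 value between milk types is given for tag 53, nor for tags 18, 147, 68, 240 and 422, which were highest in 0d-3. Without 0d-3 and 3d, where edgeR called none, the log2 fold changes of tags 53, 169, 290, 641 and 349 were -6.88, -6.38, -5.99, -6.87 and -5.94. Without 21d the values of tags 290, 641 and 349 were -4.16, -2.83 and -4.08. Tags 169 and 290 belonged to the same family of 15 overlapping tags.

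The rises rested on 0d-3. Tag 147 had 23736 CPM there and 86.7 to 1358 CPM in the other libraries, and tag 68, which began 1 base later, had 45856 CPM there and 244 to 2697 CPM elsewhere. Tag 240 had 4735 CPM in 0d-3 and 46.8 to 221 CPM elsewhere. Their log2 fold changes of 5.82 ± 2.33, 5.71 ± 2.24 and 5.54 ± 1.99 (SE) turned to -2.52, -2.21 and -1.18 without 0d-3, and none of the 3 passed the adjusted threshold by edgeR with all 8 libraries or without 1 of them, unless groups with low counts were kept. For tag 18 the value of 8.13 ± 2.46 (SE) turned to -0.32 without 0d-3, and it passed without 3d (9.14, edgeR adjusted p = 0.041).

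Change with day gave a similar picture. No core tag passed the adjusted threshold with 8 libraries or without 0d-3, and 0% of the 9147 groups tested with 8 libraries did. At an unadjusted p under 0.05, 39 core tags (5.46%) rose and 16 (2.24%) fell with day, against 6.12% and 1.6% of the tested groups. Without 0d-3, 88 (12.3%) rose and 0 fell, against 8.89% and 1.14%. With all 8 libraries and log2(day + 1) in place of day, 62 (8.68%) rose and 66 (9.24%) fell, against 9.75% and 3.75%. With library size alone as the scaling, 55 (7.7%) rose and 2 (0.28%) fell, against 6.06% and 0.284%. The balance of rises and falls thus depended on these choices. By DESeq2 11 core tags (1.54%) passed, all rising, against 1.84% of the tested groups rising and 0.0984% falling. No DESeq2 slope is given for the tags named below for a fall with day, so that its calls say nothing of them. The 5 steepest slopes upwards by the rule were 0.28 ± 0.076 log2 per day (SE) for tag 53, 0.27 ± 0.082 for tag 641, 0.25 ± 0.090 for tag 290, 0.23 ± 0.075 for tag 575 and 0.21 ± 0.090 for tag 349, and 21d was the highest library of each. Without 21d these slopes were 0.17, 0.14, 0.20, 0.03 and 0.17, in the same order, so that the rise of tag 575 rested on 21d. Tag 575 (CGCGACCTCAGATCAG) is a 16-nt piece of tag 6. The slopes downwards, -0.32 for tag 18, -0.24 for tag 240 and -0.21 for tag 184, became 0.00, 0.02 and 0.01 without 0d-3. A pair of tags with bases found before a leader, described last, completed these falls with -0.25 and -0.22, and -0.02 each without 0d-3.

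The 46 core tags called without 0d-3 came from 25 families or single tags, so that they may be fewer RNAs than tags. A family of 17 overlapping tags held 7 of them, and 4 of the 7 are shown because they differ only in their ends.
tag 24: CGGCGACTCTGGACGCGAg
17 nt, same start: CGGCGACTCTGGACGCG
tag 110: CGGCGACTCTGGACGC
tag 312: GGCGACTCTGGACGCG

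Tag 24 had 492, 571, 292 and 476 CPM in 0d-1, 0d-2, 0d-3 and 3d, and 2559, 1793, 2798 and 3168 CPM at 7d, 14d, 21d and 28d. Tag 110, which began on the same base and was of 16 nt, had 26.7, 33.2, 3.28 and 90.6 CPM in colostrum and 1511, 535, 1771 and 837 CPM in mature milk. Neither overlapped between milk types. Their log2 fold changes without 0d-3 were -2.75 ± 0.65 and -4.89 ± 1.04 (SE, edgeR adjusted p = 0.0335 and 0.0295), and with all 8 libraries -1.54 and -4.41 (adjusted p = 0.573 and 0.109). The difference between the pair was not tested.

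A group of 14 core tags overlapped the reverse primer site of 5S rRNA, the small RNA of the large ribosomal subunit. 9 of them are shown in the order of their first base, with the run shared with the reverse complement of the primer in capitals. The set was noticed in the data, so that it is described without a test of the set.
tag 5: ggAATACCGGGTGCTGTAGGCTt
5S from position 3: TACCGGGTGCTGTAGGCTt
5S from position 4, 18 nt: ACCGGGTGCTGTAGGCTt
5S from position 4, 17 nt: ACCGGGTGCTGTAGGCT
5S from position 5, 18 nt: CCGGGTGCTGTAGGCTtt
5S from position 5, 17 nt: CCGGGTGCTGTAGGCTt
5S from position 6, 17 nt: CGGGTGCTGTAGGCTtt
5S from position 6, 16 nt: CGGGTGCTGTAGGCTt
5S from position 7, 16 nt: GGGTGCTGTAGGCTtt

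Positions count from 1 at the first base of the reverse complement of the primer, and nearly all tags ended on the same run of T. Tag 5, the longest of those shown, had 9412, 10329, 1205 and 5123 CPM in 0d-1, 0d-2, 0d-3 and 3d, and 3781, 8082, 6822 and 5818 CPM at 7d, 14d, 21d and 28d. Its milk types overlapped. The tag from position 7 had 135, 564, 18.7 and 252 CPM in colostrum and 6903, 2893, 4481 and 7647 CPM in mature milk. It was lower in every colostrum library, with a log2 fold change of -4.13 ± 1.02 (SE, edgeR adjusted p = 0.0994) and -4.54 ± 0.80 without 0d-3 (adjusted p = 0.0295).

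The 16-nt tag from position 6 had 53.3, 98.8, 11.5 and 86.1 CPM in colostrum and 2997, 1459, 1914 and 1262 CPM in mature milk. The same lack of overlap held for 5 of the 14 tags, those from positions 5 to 7, and all 5 were called lower in colostrum without 0d-3, with log2 fold changes from -3.18 to -4.97. Of all tested groups, 10.9% had this lack of overlap in the same direction and 7.5% were called lower without 0d-3. The tag of 18 nt from position 4, only 1 base longer at its 5′ end, had 2248, 2250, 116 and 1815 CPM in colostrum and 3529, 3672, 1755 and 3327 CPM in mature milk, and overlapped between milk types.

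Of the counts of the 14 tags, the 7 with a commonest insert of 16 to 18 nt held 20.6% in 0d-1, 22.4% in 0d-2, 6.27% in 0d-3 and 29.3% at 3d. They held 79.6% at 7d, 53.3% at 14d, 60% at 21d and 69.2% at 28d. The highest colostrum value, 29.3% at 3d (95% Wilson interval 28.1 to 30.5%), lay below the lowest mature milk value, 53.3% at 14d (52.5 to 54.0%). These are shares of tags and not of insert lengths, since a tag of 18 nt also holds longer inserts. In the 18-nt tag from position 4 the commonest insert had a mean share of 53.7%. A ratio within a library does not depend on the scaling between libraries. The intervals cover counting error only, as PCR copies of a molecule were not told apart.

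**Figure D4:**
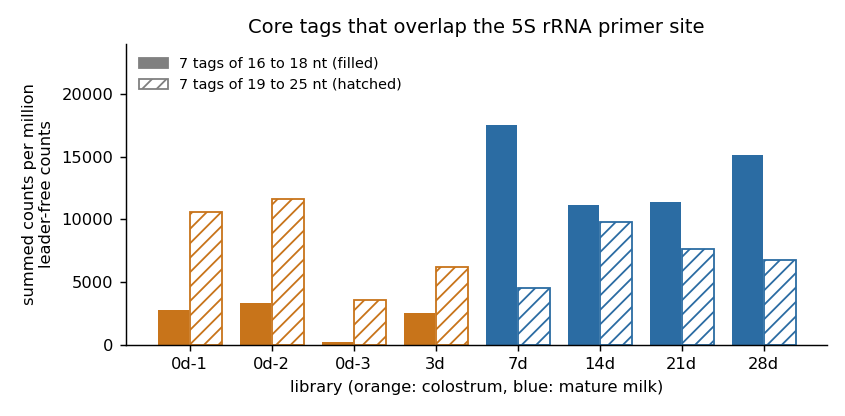
Summed level of the 14 core tags at the 5S rRNA primer site in each library, in CPM of leader-free counts, colostrum in orange and mature milk in blue. Filled bars are the 7 tags with a commonest insert of 16 to 18 nt, and hatched bars the 7 with one of 19 to 25 nt. The filled bars reach 239 to 3364 in colostrum and 11119 to 17507 in mature milk.

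Another 75 core tags (10.5%) carried the letters GTTCNNNNCC, N being any base, from base 1 or base 2, against 3.66% of the tested groups. The letters were searched on the strand read, in the first 18 nt. In tRNAs such a run lies in the T arm, where the stem passes into the loop, and its adenine, here the sixth letter, is often methylated and is then often misread by reverse transcriptase. A match describes letters and not an origin. The sixth letter was A in 29 tags, T in 32, G in 13 and C in 1. Of the 50 pairs of these tags that differed by 1 base, 38 differed at the sixth letter. The tags below are shown since they are alike except for that base, in capitals, where A6T is a change from A to T at base 6 of the tag.
A: gttcgAatcccagcggtg
A6T: gttcgTatcccagcggtg
A6G: gttcgGatcccagcggtg
A6C: gttcgCatcccagcggtg
A: gttcgAttcccggtcagg
A6T: gttcgTttcccggtcagg

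In the first set the A tag had 393, 428, 64.2 and 186 CPM in 0d-1, 0d-2, 0d-3 and 3d, and 514, 414, 371 and 729 CPM at 7d, 14d, 21d and 28d. The A6T tag had 481, 487, 89.0 and 254 CPM in colostrum and 308, 384, 338 and 471 CPM in mature milk. T exceeded A in every colostrum library and A exceeded T in every mature milk library. The A6C tag was the rarest, at 5.28 to 30.6 CPM.

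In the second set the A tag had 29.4, 54.8, 29.0 and 177 CPM in colostrum and 7322, 219, 537 and 2869 CPM in mature milk. The A6T tag had 34.0, 42.0, 51.4 and 195 CPM in colostrum and 400, 91.6, 572 and 216 CPM in mature milk. The A tag thus did not overlap between milk types, while the A6T tag did.

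Both A and T tags were present in 16 such sets. Of their summed counts, T had 64.3% in 0d-1, 60.7% in 0d-2, 77.8% in 0d-3 and 63.9% at 3d, and 26.4% at 7d, 52.1% at 14d, 53.0% at 21d and 29.9% at 28d. Every colostrum library lay above every mature milk library, and the nearest were 60.7% (95% Wilson interval 59.7 to 61.8%) and 53.0% (51.7 to 54.2%). The sum weights each set by its counts, and these weights differed between libraries. The A tag of the second set above, for example, had 29.4 CPM in 0d-1 and 7322 CPM at 7d. The summed share can thus change with the weights as well as with the base within a set, and the parts were not separated. By single sets, the T share was higher in all colostrum libraries than in all mature milk libraries in 7 of 16 sets and lower in 0, and its mean was higher in colostrum in 15 of 16. Some sets are shifts of each other by 1 base and may thus share an RNA. These shares were examined after the values were seen and were not tested.

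**Figure D5:**
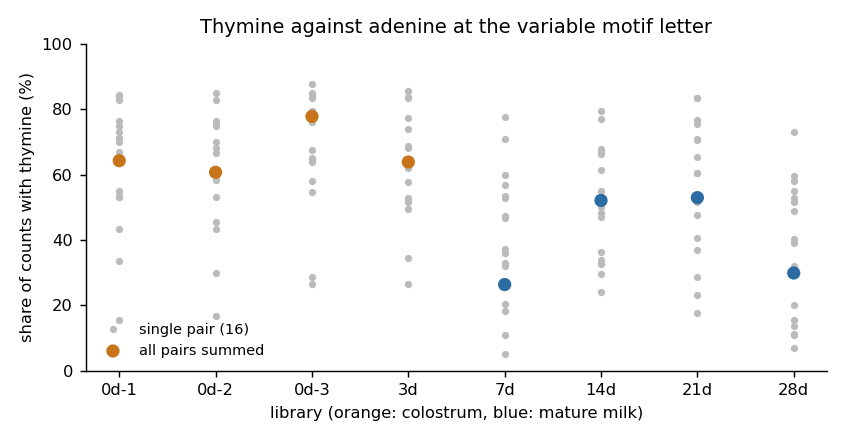
Share of thymine among the counts with thymine or adenine at the sixth motif letter (%), in each library, for each of the 16 pairs of core tags (grey points) and for all pairs summed (large points, orange for colostrum and blue for mature milk). The large points lie between 60.7 and 77.8% in colostrum and between 26.4 and 53.0% in mature milk.

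The 75 tags summed to 10603, 12931, 9972 and 7165 CPM in 0d-1, 0d-2, 0d-3 and 3d, and to 39157, 16445, 14175 and 54265 CPM at 7d, 14d, 21d and 28d. All mature milk sums lay above all colostrum sums, with 7d and 28d the highest. Without 0d-3, 7 of the 75 were called lower in colostrum by edgeR, beside 7.5% of the groups tested. The median log2 fold change without 0d-3 was -1.79 for the 29 tags with A and -0.812 for the 32 with T, and with all libraries -0.44 and 0.49.

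A tRNA ends in CCA, which is added after transcription. The commonest insert ended in CCA in 36 core tags (5.04%), against 21.6% of the tested groups. It was found with equal weight for each library in the core tags. In the tested groups it was found from counts summed over the libraries, of which 0d-3 had the most. Of the 36 core tags, 31 carried neither a primer match nor the motif above. These 31 summed to 2849, 3003, 1663 and 3575 CPM in colostrum and 2097, 2838, 1458 and 2007 CPM in mature milk. The milk types overlapped. They held both core tags that lay higher in all 4 colostrum libraries, and their median log2 fold change was 1.15, and 0.338 without 0d-3. One further core tag, tag 449, matched the forward primer of methionine tRNA and had 1.85 to 85.9 CPM.

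Variants of the 13 miRNAs with a changed seed were found in 9 core tags. The seed is set by the first base, so that a start 1 base later gives another one. The pairs below show the listed miRNA and its core tag, with bases 2 to 8 in capitals.
miR-30a-5p: tGTAAACAtcctcgactggaagc
start 1 base later: gTAAACATcctcgactggaagct
start 2 bases later: tAAACATCctcgactggaagct
miR-200c-3p: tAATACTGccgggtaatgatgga
start 1 base earlier: cTAATACTgccgggtaatgatgga

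The start 1 base later of miR-30a-5p, a miRNA of the miR-30 family, had 327, 364, 262 and 180 CPM in 0d-1, 0d-2, 0d-3 and 3d, and 186, 369, 294 and 194 CPM at 7d, 14d, 21d and 28d. Against the group with the listed start it amounted to 0.574% in 0d-3 and 0.853 to 1.57% in the other libraries. The start 2 bases later amounted to 0.0624 to 0.25%. The start 1 base later of miR-191-5p reached 1.95 to 4.04% of its group, and those of miR-25-3p, miR-21-5p and miR-574-3p lay between 0.637 and 2.90%. The start 1 base earlier of miR-200c-3p amounted to 0.908 to 1.37%. These shares overlapped between milk types, and the edgeR adjusted p of the 9 tags was 0.288 or more.

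The other variants were those of miR-148a-3p with 1 base changed at position 5, counted from 1 at its 5′ end. T5C had 100, 62.3, 1.07 and 37.8 CPM in colostrum and 103, 59.9, 45.4 and 146 CPM in mature milk. It amounted to 0.476% of the listed group in 0d-3 and 0.0291 to 0.123% in the other libraries. T5G amounted to 1.91% in 0d-3 and 0.0126 to 0.0765% elsewhere, although its level was lowest in 0d-3, at 4.28 CPM. The listed group itself had 225 CPM in 0d-3 and 111439 to 178563 CPM in the other libraries. Sequencing error and RNA variants were not told apart by any value here.

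Finally, in 11 core tags the commonest insert held the 8 bases that stood before a leader in longer reads, and such bases are known from the 5′ adaptor of small RNA kits. The 11 tags summed to 6699, 4682, 40021 and 4274 CPM in 0d-1, 0d-2, 0d-3 and 3d, and to 3017, 3283, 24731 and 2529 CPM at 7d, 14d, 21d and 28d. They were highest in 0d-3 and at 21d. Tag 422, among the 5 largest rises in colostrum by the log2 fold change (5.86 ± 1.89 SE, -0.03 without 0d-3, and 6.87 without 3d with an edgeR adjusted p of 0.0464), was of this kind, with 1955 CPM in 0d-3 and from 35 to 86 CPM elsewhere.

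The commonest insert of 6 core tags (0.84%) ended in a leader, against 1.47% of the tested groups, so that such an end is no mark of the core tags. As with CCA, the commonest insert of the tested groups was found from summed counts. The 6 included a pair of miR-30a-5p variants above and 1 of the 11 tags, and the remaining 3 are shown with the leader in capitals.
tag 19: gacgaggtggcCGTGA
tag 168: accaggatggcCGTGA
tag 651: agcccgtggacggtgtgaggcCGTGA

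The 3 tags summed to 57.9, 1076, 630 and 57847 CPM in 0d-1, 0d-2, 0d-3 and 3d, and to 31572, 2283, 7326 and 1177 CPM at 7d, 14d, 21d and 28d. Tag 19 alone had 48631 CPM at 3d and 29463 CPM at 7d. It gave 24.2% of the core tag counts at 3d and 9.02% at 7d, the libraries with the shortest core tags. Tags 19 and 168 are the 16-nt tags left out of the lengths above.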

How the data were processed

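The authors deposited, for each of the 8 libraries, counts of distinct reads with the adaptor attached and no normalization. Sequencing was on an Illumina Genome Analyzer II, and reads of every count, down to 1, were included. The adaptor was cut at the first match of its first 8 nt. Members and lists were chosen with earlier results of these data known. Groups with more than 10 counts in any library, without leaders, were tested with edgeR 4.0.16 (filterByExpr, TMM on leader-free totals, quasi-likelihood test, Benjamini-Hochberg adjustment, threshold 0.05), with milk type or day as covariate. DESeq2 1.42.0 was an alternative. Named tags were the 10 highest by median CPM and the 5 largest rises and falls by milk type and by day among called tags or, with none called, those at an unadjusted p under 0.05, and the groups at the count minimum, which were given as numbers. No pig miRNA sequences were used, so that the planned share of core tags that match them was not run. On simulated data for 4 against 4 libraries (5111 groups, 200 changed by a log2 fold change of 4), 200 were recovered at a dispersion of 0.1 and 6 at the estimated dispersion of 1.21, with 10 and 0 false calls. Python 3.11.15 and R 4.3.3 were used.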

Additional observations from a re-analysis of the deposited data

Results flagged for a closer look

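In groups of 4 libraries, the gap of the highest or lowest library to its neighbour was compared with the range of the group by Dixon's ratio, for 54 groups of reported values. The gap was over the limit in 15, of which 9 were from 0d-3. Chance gives about 1 in 20, but most of the tags examined were named for a large change or level, so that the count is no measure against it. The share of core tags in leader-free counts was 59.6% in 0d-3, and the mean length of core tags was 19.5 nt at 3d (20.9 nt without tags 19 and 168), both apart from the other colostrum libraries. Among colostrum libraries 0d-3 also stood apart with 269 CPM for tag 3, 295977 CPM for tag 18 and 45856 CPM for tag 68. The same held with 23736 CPM for tag 147, 3616 CPM for tag 184 and 4735 CPM for tag 240. It held too with 1287 CPM and 1955 CPM for tags 398 and 422, which hold bases that stood before a leader in longer reads. Among mature milk libraries 21d stood apart with 22903 CPM for tag 6, 19031 CPM for tag 10, 14763 CPM for tag 53, 1591 CPM for tag 575 and 2054 CPM for tag 641.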

How the results depend on the processing

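The number of core tags was 714, and it was 105 with a minimum of more than 100 counts and 715 to 1114 when 1 library was left out, with 1114 without 0d-3. In the comparison of milk types the 0 core tags called became 18 with no filter on low counts (6 higher and 12 lower in colostrum, beside 1.61% and 1.99% of all groups, and 9 of them among the 46 called without 0d-3), 35 by DESeq2 (28 among the 46), 46 without 0d-3 and 5 without 3d (2 higher and 3 lower, beside 0.352% and 4.02%), so that leaving out 1 library gave 0 to 46. The 46 became 0 when 3d or the 36-nt libraries were left out as well, with log2 fold changes of -3.18 to -6.88 for the 5 falls named. With no filter all 10 tags named for a difference between milk types passed (edgeR adjusted p = 0.00631 to 0.0356). In the change with day the 0 called became 4 with no filter (3 rising and 1 falling, beside 0.656% and 1.91%), 11 by DESeq2 and 31, all rising (beside 1.8%), when 0d-3 and the 36-nt libraries were left out, which was decided on with the data in view, and 0 when any 1 library was left out. The mean length differed by 0.473 nt with each tag given the same weight (exact permutation p = 0.0286), and by counts from 0.644 to 1.48 nt when 1 library was left out. By counts the difference was 0.494 nt with 40-nt reads alone (exact permutation p = 0.733). It was 0.222 nt with 0d-3 left out as well (exact permutation p = 0.9). The difference in the share of T as first base, 0.78 percentage points, was -0.207 with more than 100 counts, -1.06 with 40-nt reads alone and -0.11 with these and 0d-3 left out, and ran from -0.237 to 1.79 points when 1 library was left out. Without 0d-3, with 0d-3 and the 36-nt libraries left out, and with 0d-3 and 3d left out, in this order, the log2 fold change of tag 18 was -0.32, -0.04 and -0.09, of tag 147 -2.52, -1.45 and -2.39, of tag 68 -2.21, -1.24 and -2.18, and of tag 240 -1.18, -0.39 and -0.88, and of tag 422 -0.03, 0.08 and 0.22. With any 1 library left out, the highest values were 9.14, 7.05, 6.80, 6.53 and 6.87 for these 5 tags. The slope per day was 0.00, 0.00 and 0.01 for tag 18, 0.02, 0.02 and 0.01 for tag 240, and 0.01, 0.02 and 0.02 for tag 184, with lowest values of -0.44, -0.31 and -0.30 when 1 library was left out. The cause was not tested. Scaling by library size alone moved the median of all tested groups from 0.275 to -0.102 and that of the core tags from 0.187 to -0.402. No paired analysis was possible because the libraries of 3 to 28 days were pooled over the same sows, and only 0 days had a library for each sow. Depth limits the core tags with 11 counts at 3d or 7d, where the fewest leader-free counts were read.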
